A study of Homo sapiens with 10 samples.

Results

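The carriers described here are the members of solute carrier family SLC25 and the related proteins MTCH1 and MTCH2. They were measured in SH-SY5Y cells, a human line grown from a neuroblastoma, a tumour of the sympathetic nervous system, that carried a stable transfection of either SOD1 in its wild-type form or the SOD1(G93A) mutant found in familial amyotrophic lateral sclerosis. Members were all probe sets annotated to exactly 1 gene symbol that begins with SLC25A or equals MTCH1 or MTCH2, and each gene was read by its brightest probe set (highest mean of the 10 arrays). This gave 36 genes on 38 probe sets, out of 14232 named genes on 22011 probe sets. There were 10 arrays of the Affymetrix exon type, 5 with the wild-type construct (samples 2, 8, 11, 14 and 17 of the labels) and 5 with SOD1(G93A) (samples 3, 9, 12, 15 and 18). Both lines were kept in G418, the drug that selects for the transfected DNA, and no untransfected line was analysed here. The labels do not say whether a line descends from 1 clone, or whether the 5 samples of a group were cultured separately. Each p-value is therefore about the spread among these arrays, part of which may be technical, and the construct and any other difference between the lines cannot be told apart.

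SLC25 proteins sit mainly in the inner mitochondrial membrane, where each moves a small molecule across a barrier that is otherwise closed to it. They exchange ADP for ATP, bring in phosphate, shuttle the acids and amino acids that link the cytosol to the citric acid cycle, and supply cofactors and iron. Neurons depend on the aspartate/glutamate and oxoglutarate carriers, which together move the reducing power of cytosolic NADH into the matrix. MTCH1, MTCH2 and SLC25A46 lie in the outer membrane instead.

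Of the 50 SLC25 and MTCH genes in the RefSeq table, 35 were measured, and the remaining member was SLC25A3P1, a pseudogene of the phosphate carrier SLC25A3. SLC25A3, SLC25A15, SLC25A21, SLC25A27, SLC25A32, SLC25A33, SLC25A35, SLC25A51 and SLC25A52 were listed only on probe sets with several symbols, so no value is assigned to them. Of the 9 probe sets concerned, 1 was called by the test used below, beside 7.46% of all probe sets. It is not in the carrier counts given below. The other genes of that table, among them the ADP/ATP exchangers SLC25A5 and SLC25A6, were not analysed here.

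Values are log2 intensities after RMA, which makes the arrays' distributions alike. Array medians lay between 6.26 and 6.34, and pairs of arrays correlated at 0.990 to 0.994 inside a group and at 0.986 to 0.990 across groups. SOD1 itself was at 9.78 ± 0.13 with the wild-type construct and 9.55 ± 0.09 with SOD1(G93A) (SD, n = 5 each). Of 20 markers of noradrenergic neuroblastoma 16 were measured. Of these 56.25% were called (5 higher and 4 lower with SOD1(G93A)), beside 9.6% of named genes. Higher were CHGB, CHGA (log2 fold change 1.06, below that of CHGB), SLC18A2 (0.64), TBX2 (0.38) and DDC (0.28). Lower were GATA2 (−0.58), GAP43 (−0.48), NEFL (−0.39) and GATA3 (−0.38). The markers' mean level per array does not show these opposite shifts: it was 9.38 to 9.54 in wild-type and 9.45 to 9.65 in SOD1(G93A) arrays. For 11 immune and endothelial markers it was 3.51 to 3.62 and 3.55 to 3.60, for 9 Schwann and glial markers 3.99 to 4.08 and 4.02 to 4.18, and for 9 fibroblast markers 6.14 to 6.32 and 6.34 to 6.42. The fibroblast markers DCN and FAP were called higher, by 1.34 and 0.43, as was the glial marker S100B, by 0.73. FAP in both groups (means 2.16 and 2.59) and S100B in wild type (3.69, against 4.42) lay under the arrays' lower quartiles (3.84 to 3.89). Most other members of both lists had fold changes below 0, and the median was −0.05 in each list. Below 0 were 5 of the 9 fibroblast markers, with TWIST1 at −0.29, PDGFRB at −0.15 and COL1A2 at −0.12, none called. So were 7 of the 9 glial markers. Above 0 without a call were the fibroblast markers LUM at 0.29 and COL1A1 at 0.14, and the glial marker ERBB3 at 0.16. Among the 9 fibroblast markers 6 had an unadjusted p by limma under 0.05, and 4 did not overlap between the groups. For the 9 glial markers these counts were 2 and 1, and for named genes the shares were 21.7% and 11.4%. The part of such shifts in the carrier values was not tested.

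The carrier family differed little between the lines. A gene was called when limma, adjusted by Benjamini-Hochberg across the 22011 probe sets, gave an adjusted p of 0.05 or less. By that test 1 of 36 carriers was lower, SLC25A11, and 0 were higher; 4 had an unadjusted p under 0.05 (3 downward and 1 upward), a level reached by 21.7% of named genes. The share called was 2.78%, beside 9.6% of all named genes (4.03% higher and 5.57% lower) and 7.46% of all probe sets. None of the carriers passed the 2-fold threshold that the labels add, against 1.18% of named genes. The uncoupling proteins, carriers of the same family under other symbols, are not in these counts. UCP2 among them was called lower, as given below. Fold changes are given on the log2 scale as the SOD1(G93A) mean less the wild-type mean. Those of the carriers ran from −0.36 to 0.23, with 19 above and 17 below 0 and a median of 0.02 (median of named genes 0.00). In such bulk samples, fewer cells of a type and less RNA per cell cannot be told apart.

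**Figure D1:**
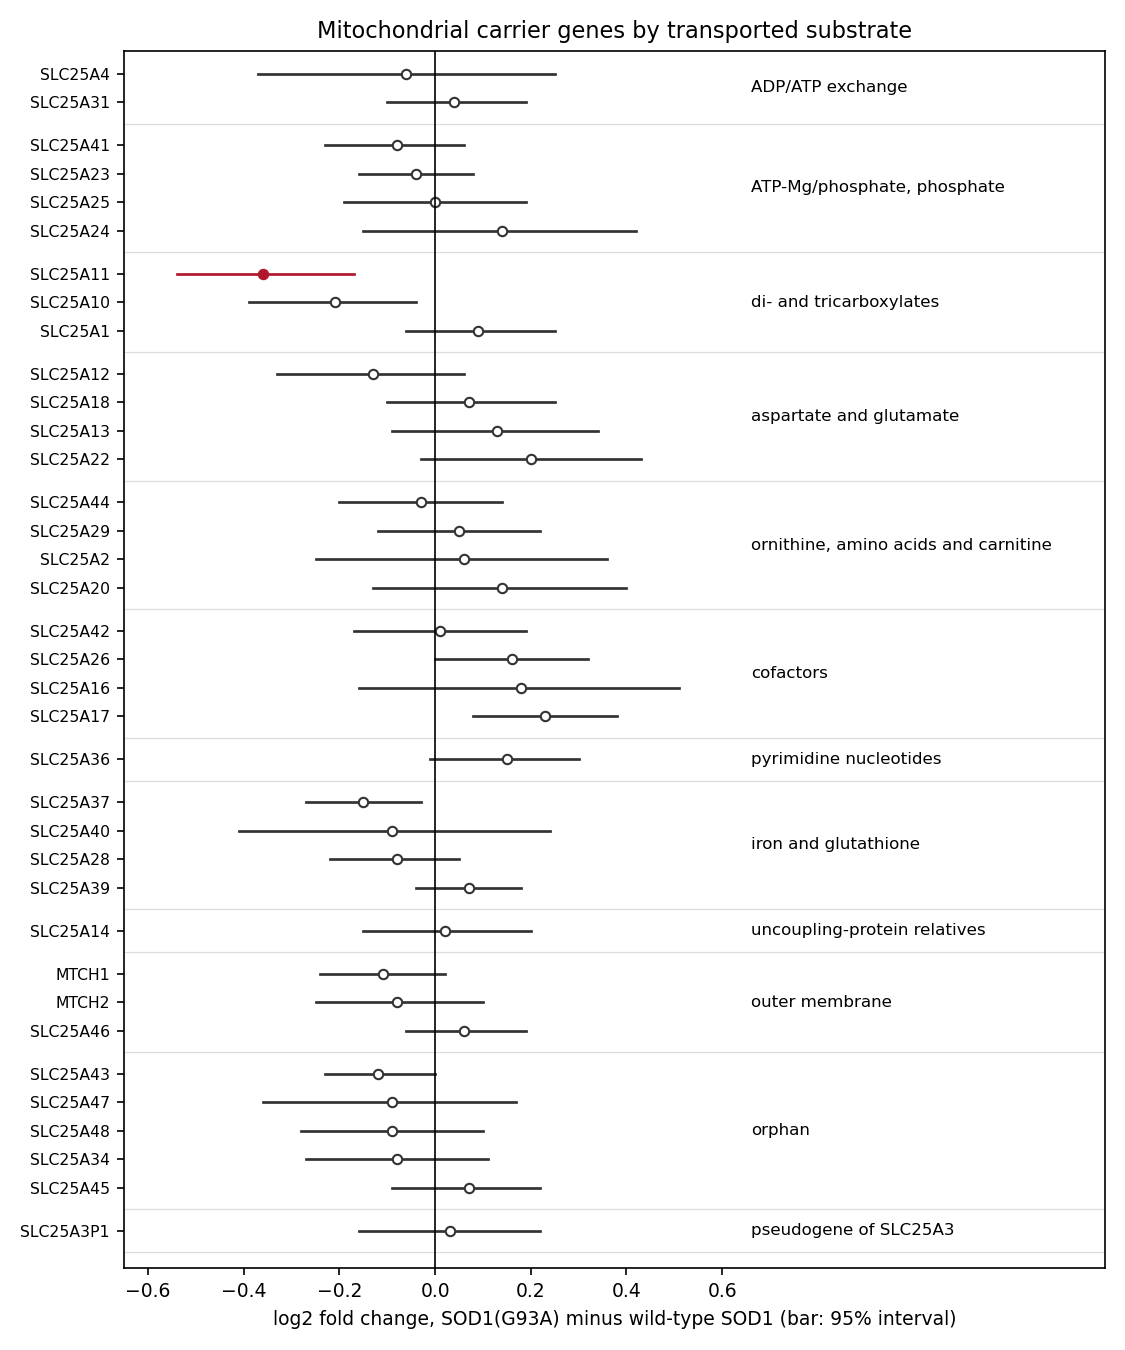
Log2 fold change of each of the 36 genes (SOD1(G93A) minus wild-type SOD1), with its 95% interval from limma, grouped by transported substrate; the filled red point is called and open points are not. SLC25A11 at −0.36 is the lowest value, and the intervals of most other genes include 0.

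The intervals show what differences these arrays leave room for. For all 36 genes the 95% interval lay between −1 and 1, so that a 2-fold difference was outside it. For 34 genes it lay between −0.5 and 0.5, the exceptions being SLC25A11 (−0.54 to −0.17) and SLC25A16 (−0.16 to 0.51). The same held for 86.1% of all named genes. An absolute fold change of 0.3 or more was found in 1 carrier, or 2.78%, and in 10.7% of named genes. The median absolute fold change was nevertheless 0.09 in both sets, with a median standard error (SE) of 0.08 in both.

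**Figure D2:**
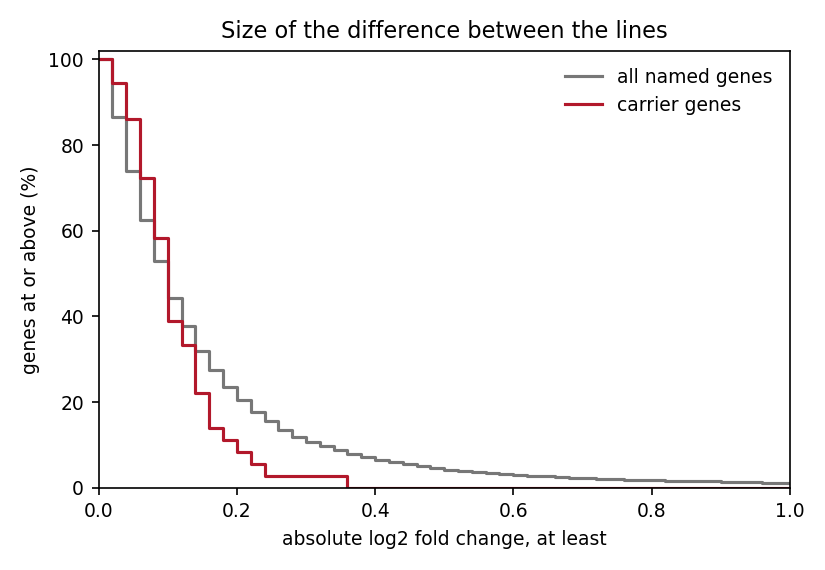
Percentage of genes (vertical axis) whose absolute log2 fold change is at least the value on the horizontal axis, for the 36 carrier genes (red) and all 14232 named genes (grey). At 0.1 the lines stand at 38.9% and 44.4%, at 0.2 at 8.33% and 20.5%, and at 0.4 at 0% and 6.59%.

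SLC25A11 encodes the carrier that exchanges oxoglutarate for malate, a step of the malate-aspartate shuttle. Its log2 intensities were 9.92, 9.73, 10.01, 9.80 and 9.65 in wild-type samples 2, 8, 11, 14 and 17. In SOD1(G93A) samples 3, 9, 12, 15 and 18 they were 9.51, 9.42, 9.40, 9.67 and 9.35. Sample 15 reached just above the lowest wild-type array, sample 17, and the other 4 SOD1(G93A) arrays lay below all wild-type arrays. SLC25A11 fell by 0.36 (SE 0.08, from 9.82 ± 0.14 to 9.47 ± 0.12, SD, n = 5 each) to 78.2% of the wild-type level. The adjusted p by limma was 0.0270, and the 2-sided exact permutation test of the 10 values gave p = 0.0159. The call was lost without any 1 of 7 arrays: wild-type samples 2, 11 or 14, or SOD1(G93A) samples 3, 9, 12 or 18. The fold change without 1 array ran from −0.41 to −0.31, and the adjusted p from 0.0159 to 0.0696.

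**Figure D3:**
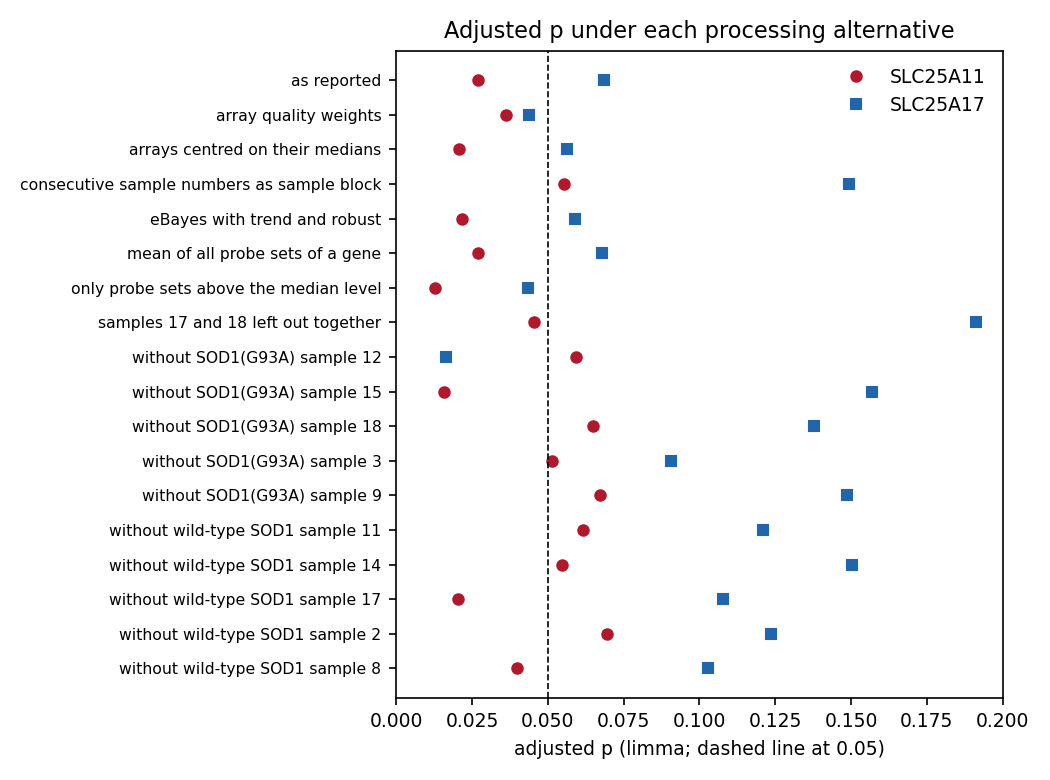
Adjusted p by limma (horizontal axis) of SLC25A11 (red circles) and SLC25A17 (blue squares) as reported and under 17 alternatives (vertical axis), with a dashed line at the 0.05 threshold. SLC25A11 ranges from 0.0127 to 0.0696 and SLC25A17 from 0.0164 to 0.191, so both genes lie on either side of the line depending on the setting.

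SLC25A11 starts close to RNF167, a ubiquitin ligase gene that is transcribed the other way. The 45 bases between the starts of both genes in RefSeq (GRCh38.p14, chr17:4940047-4940091) are shown on the minus strand, the strand of SLC25A11, because SLC25A11 was the carrier gene that was called. Capitals mark a match, in its reverse complement, to the consensus motif of NRF1, a regulator of nuclear genes for mitochondrial proteins.

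SLC25A11: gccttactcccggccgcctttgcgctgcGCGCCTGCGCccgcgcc

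Promoters, from 250 bases before to 50 after each start, were listed for 31 of the 36 members. The NRF1 motif stood on either strand in 2 of them, SLC25A11 and SLC25A31, or 6.45%, and in 9.67% of 15843 protein-coding genes. CCGGAAG, the motif of GABPA and other ETS factors, stood in 11 of 31 carriers (35.5%) and in 16.5% of coding genes. The E-box CACGTG, which MYC can bind, stood in 8 (25.8%) and in 10.9%. TCAAGGTCA, the motif of ESRRA and ESRRG, was found in 0 of 31 and in 0.335%. The GC box GGGCGG stood in 74.2% of the carriers and 64.3% of coding genes, the CCAAT box CCAAT in 51.6% and 42.1%, and the TATA box TATAAA in 6.45% and 12.4%. All motifs were searched on both strands, overlapping matches of different motifs were kept, and a gene counted once if any of its listed promoters held the motif. These counts describe letters in a window and were not tested.

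The other carriers of di- and tricarboxylates did not pass the threshold. SLC25A10, which exchanges malate or succinate for phosphate, read 8.63, 8.66, 9.03, 8.77 and 8.81 in wild-type samples 2, 8, 11, 14 and 17. It read 8.58, 8.60, 8.57, 8.62 and 8.45 in SOD1(G93A) samples 3, 9, 12, 15 and 18. All SOD1(G93A) arrays were below all wild-type arrays, the only such separation among the carriers (1 of 36, beside 11.4% of named genes), although the gap between the groups was narrow. Its fold change was −0.21 (95% interval −0.39 to −0.04, adjusted p by limma 0.159, exact permutation p = 0.00794, the smallest that 5 against 5 arrays allow). SLC25A1, the citrate carrier that feeds cytosolic lipid synthesis, had a fold change of 0.09 (−0.06 to 0.25).

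**Figure D4:**
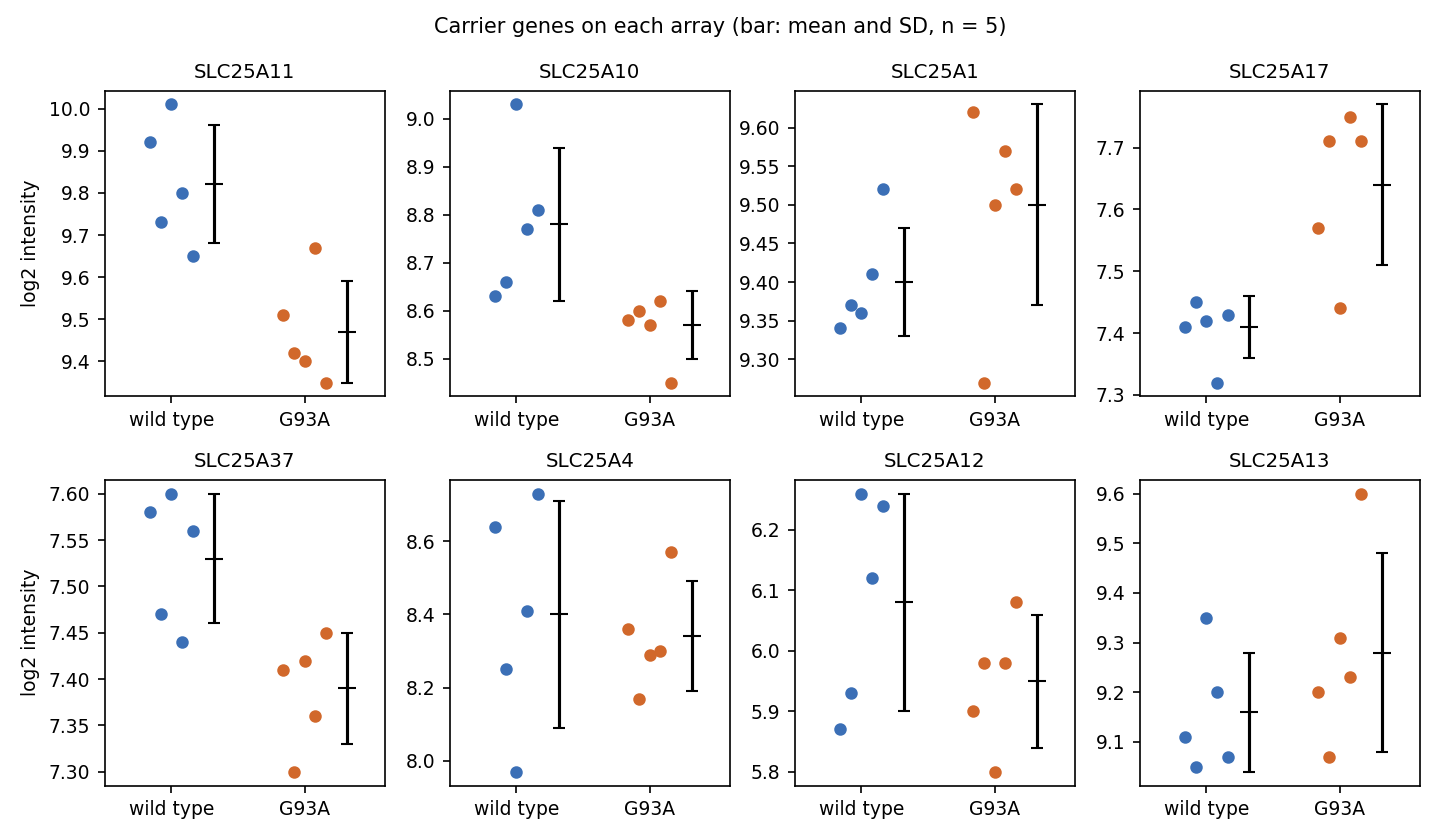
Log2 intensity (vertical axes, a separate scale for each gene, none starting at 0) of 8 carrier genes on each array, wild-type SOD1 in blue and SOD1(G93A) in orange, with the mean and SD of each group (n = 5) in black. The groups separate fully for SLC25A10, nearly for SLC25A11, SLC25A17 and SLC25A37, and overlap widely for the other 4.

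The aspartate/glutamate carriers, which complete the malate-aspartate shuttle, were not called. Whether their fold changes differ from that of SLC25A11 was not tested. SLC25A12 (aralar), the form typical of brain and muscle, read 5.87, 5.93, 6.26, 6.12 and 6.24 in the wild-type samples, in the order above, and 5.90, 5.98, 5.80, 5.98 and 6.08 in the SOD1(G93A) samples. SLC25A13 (citrin), the form typical of liver, read 9.11, 9.05, 9.35, 9.20 and 9.07, and then 9.20, 9.07, 9.31, 9.23 and 9.60. In both genes the groups overlapped, and SLC25A13 was highest in SOD1(G93A) sample 18. Their fold changes were −0.13 (−0.33 to 0.06, adjusted p by limma 0.497) and 0.13 (−0.09 to 0.34, adjusted p by limma 0.575). The shuttle's enzymes were not called either: the malate dehydrogenases MDH1 and MDH2 had fold changes of −0.02 and −0.10, and the aspartate aminotransferases GOT1 and GOT2 of −0.11 and 0.00. The glutamate carriers SLC25A22, which has been linked to infantile epilepsy, and SLC25A18 had fold changes of 0.20 (−0.03 to 0.43) and 0.07 (−0.10 to 0.25).

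The measured carriers of adenine nucleotides were not called. Among ADP/ATP exchangers these were only SLC25A4 and SLC25A31, so the values do not cover SLC25A5 and SLC25A6. SLC25A4, the ADP/ATP exchanger of heart, muscle and brain, read 8.64, 8.25, 7.97, 8.41 and 8.73 in the wild-type samples and 8.36, 8.17, 8.29, 8.30 and 8.57 in the SOD1(G93A) samples. The SOD1(G93A) arrays all lay within the wild-type range, which was the wider. Its fold change was −0.06 (−0.37 to 0.25, adjusted p by limma 0.889), one of the wider intervals in the family. SLC25A31, the exchanger of the testis, was at 2.24 ± 0.10 and 2.28 ± 0.09 (SD, n = 5 each), under the arrays' lower quartiles (3.84 to 3.89). The calcium-regulated carriers of ATP-Mg and phosphate SLC25A23, SLC25A24 and SLC25A25 had fold changes of −0.04, 0.14 and 0.00, and their relative SLC25A41 of −0.08. In SLC25A24, SOD1(G93A) sample 18 stood at 7.95 against 7.39 for the next array of its group. The pseudogene SLC25A3P1 was at 0.03; its near-identity to the parent gene can mix the signals of both.

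Cofactor carriers had fold changes of 0.01 to 0.23, and none of the 4 was called. SLC25A17, which carries coenzyme A and related nucleotides in the peroxisome membrane, read 7.41, 7.45, 7.42, 7.32 and 7.43 in the wild-type samples and 7.57, 7.71, 7.44, 7.75 and 7.71 in the SOD1(G93A) samples. Sample 12 stood within the wild-type range and the other 4 above it. Its fold change of 0.23 (SE 0.07, 95% interval 0.08 to 0.38) was the largest upward one in the family and missed the threshold (adjusted p by limma 0.0684, exact permutation p = 0.0159). It was called without SOD1(G93A) sample 12 (0.28, adjusted p by limma 0.0164), while leaving out other arrays gave up to 0.157. SLC25A16, linked to coenzyme A, had 2 probe sets, with fold changes of 0.18 (−0.16 to 0.51) on the brighter and 0.30 (0.07 to 0.53, adjusted p by limma 0.128) on the other. SLC25A26, the S-adenosylmethionine carrier needed for methylation inside mitochondria, was at 0.16 (0.00 to 0.32), and SLC25A42, the coenzyme A carrier, at 0.01. The pyrimidine nucleotide carrier SLC25A36 was at 0.15 (−0.01 to 0.30).

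Among carriers of iron and glutathione, SLC25A37 (mitoferrin-1), which brings iron to heme and iron-sulfur cluster synthesis, read 7.58, 7.47, 7.60, 7.44 and 7.56 in the wild-type samples. It read 7.41, 7.30, 7.42, 7.36 and 7.45 in the SOD1(G93A) samples. Only sample 18 exceeded the lowest wild-type array, sample 14. The fold change was −0.15 (−0.27 to −0.03, adjusted p by limma 0.167). A second, dimmer probe set of the same gene gave 0.03 (−0.14 to 0.21), so the probe sets differed in sign. SLC25A28 (mitoferrin-2) was at −0.08 (−0.22 to 0.05), and the glutathione carriers SLC25A39 and SLC25A40 at 0.07 (−0.04 to 0.18) and −0.09 (−0.41 to 0.24).

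Carriers of amino acids and carnitine were likewise not called. SLC25A20, which brings fatty acids bound to carnitine to oxidation, was at 0.14 (−0.13 to 0.40), with wild-type sample 8 at 7.07 and the other 4 wild-type arrays at 7.54 or above. SLC25A2 (ornithine), SLC25A29 (basic amino acids) and SLC25A44 (branched-chain amino acids) were at 0.06, 0.05 and −0.03. SLC25A14, a brain relative of the uncoupling proteins, was at 0.02 (−0.15 to 0.20).

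In the outer membrane, MTCH2, an insertase for proteins of that membrane, read 10.60, 10.50, 10.46, 10.47 and 10.64 in the wild-type samples and 10.49, 10.39, 10.24, 10.56 and 10.61 in the SOD1(G93A) samples. MTCH1 read 8.19, 8.22, 8.35, 8.20 and 8.22, and then 8.24, 8.03, 8.20, 8.06 and 8.11. Both overlapped between the groups, with fold changes of −0.08 (−0.25 to 0.10, adjusted p by limma 0.703) and −0.11 (−0.24 to 0.02, adjusted p by limma 0.382). SLC25A46, a neuropathy gene that acts in mitochondrial dynamics, was at 0.06 (−0.06 to 0.19). Members grouped apart because their substrates are less settled had fold changes of −0.12 (SLC25A43), −0.09 (SLC25A47 and SLC25A48), −0.08 (SLC25A34) and 0.07 (SLC25A45). SLC25A43 was dim, with 3.98 ± 0.07 and 3.86 ± 0.05 (SD, n = 5 each).

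Related genes, namely the uncoupling proteins and genes that work beside the carriers, were read from 5 lists. In these 9 of 79 measured genes were called (11.4%, close to the 9.6% of named genes), so that the counts below are read gene by gene. The uncoupling proteins UCP1, UCP2 and UCP3 belong to the same protein family under other symbols. UCP2, which is found in many tissues, read 7.82, 8.06, 8.17, 7.91 and 8.19 in the wild-type samples and 7.79, 7.76, 7.71, 7.76 and 7.70 in the SOD1(G93A) samples. Every SOD1(G93A) array lay below every wild-type array, and UCP2 fell by 0.29 (SE 0.08, adjusted p by limma 0.0458). That call was lost without any 1 of 8 arrays, all but wild-type samples 2 and 14 (adjusted p up to 0.107). UCP1 and UCP3 were not called, at 0.04 and 0.18.

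Of 16 genes that import carriers through the outer membrane and the TIM22 complex, 10 were measured. By limma 0 were called, and 0 had an unadjusted p under 0.05, beside 9.6% and 21.7% of named genes. Their fold changes ran from −0.15 (TIMM10, a chaperone of the intermembrane space) to 0.27 (TOMM7, a subunit of the outer membrane pore), and TIMM22, the insertion channel, was at −0.11.

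Of 19 measured genes for other mitochondrial membrane transporters, 1 was called higher and 2 lower, beside 4.03% and 5.57% of named genes. MPC1, a subunit of the pyruvate carrier, read 9.71, 9.92, 9.61, 9.78 and 10.01 in the wild-type samples and 9.39, 9.44, 8.94, 9.21 and 9.40 in the SOD1(G93A) samples. It fell by 0.53 (SE 0.11, adjusted p by limma 0.0129) with no overlap, while its partner MPC2 was at −0.07 (adjusted p by limma 0.783). SFXN3, a sideroflexin of the group that carries serine, read 8.50, 8.35, 8.63, 8.46 and 8.50, and then 8.10, 7.96, 8.09, 8.16 and 8.35. Its highest SOD1(G93A) array, sample 18, met the lowest wild-type array, sample 8, to the second decimal, and the other arrays were apart. SFXN3 fell by 0.36 (SE 0.08, adjusted p by limma 0.0179). The sideroflexins SFXN1, SFXN2, SFXN4 and SFXN5 were at −0.12, −0.15, −0.05 and −0.12 without a call, SFXN2 with no overlap between the groups. MICU3, a neuronal regulator of the calcium uniporter, read 4.65, 4.57, 4.57, 4.66 and 4.63, and then 4.81, 4.86, 4.89, 4.92 and 5.02. All SOD1(G93A) arrays were above all wild-type arrays, and MICU3 rose by 0.28 (SE 0.05, adjusted p by limma 0.00698), while the pore MCU was at −0.06.

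**Figure D5:**
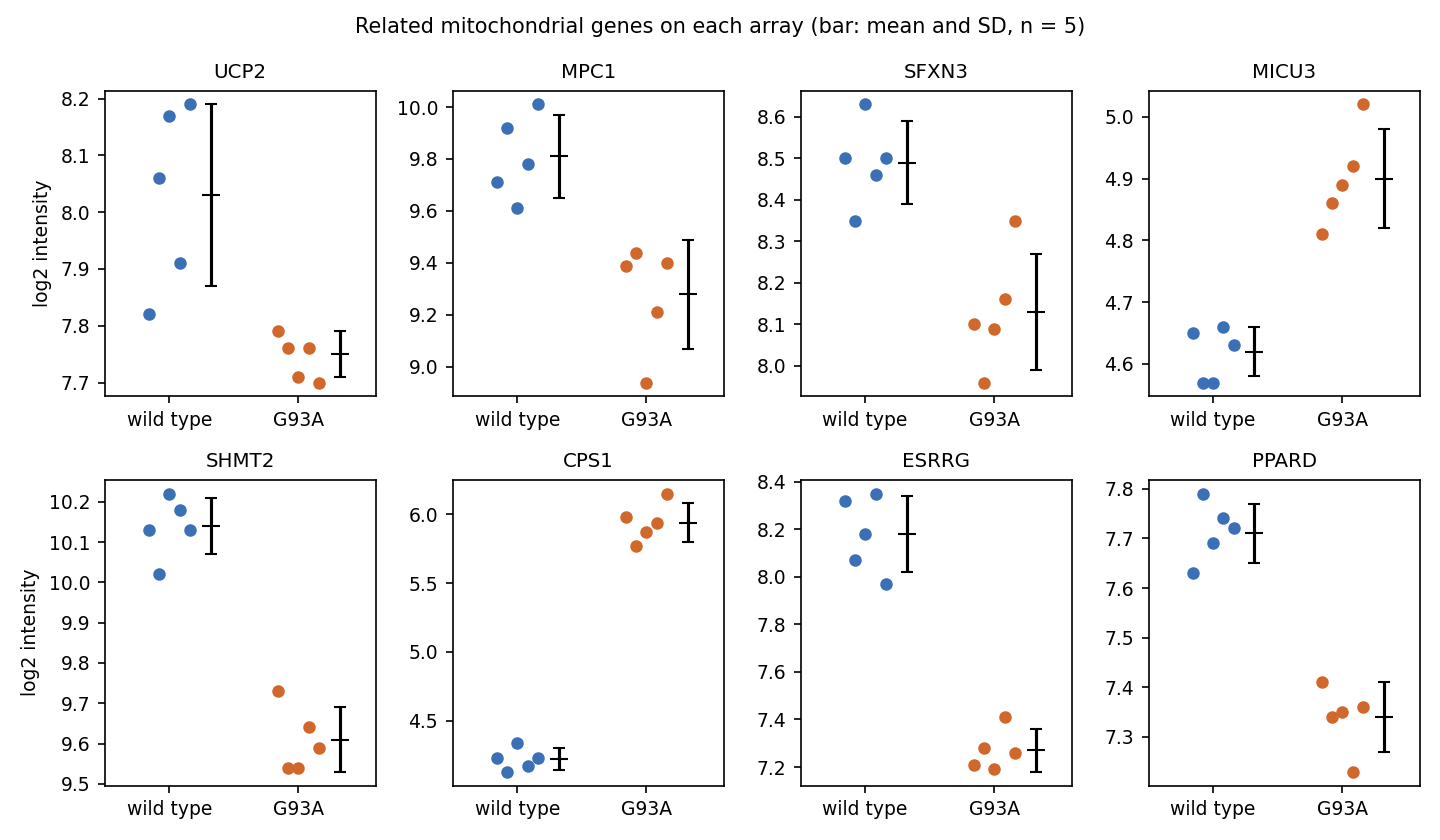
Log2 intensity (vertical axes, a separate scale for each gene, none starting at 0) of 8 called genes of the related lists on each array. Wild-type SOD1 is in blue and SOD1(G93A) in orange, with the mean and SD of each group (n = 5) in black. The 8 were picked because they were called, so their separation is no added evidence. MYC, also called, is not shown. In all 8 the groups do not overlap, as in 11.4% of named genes, although in SFXN3 the edge arrays meet to the second decimal. MICU3 and CPS1 are higher and the other 6 lower with SOD1(G93A).

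Of 37 measured enzymes that use what the carriers move, 1 was called higher and 1 lower, beside 4.03% and 5.57% of named genes. CPS1, the mitochondrial enzyme that makes carbamoyl phosphate for the urea cycle, read 4.23, 4.13, 4.34, 4.17 and 4.23 in the wild-type samples and 5.98, 5.77, 5.87, 5.94 and 6.15 in the SOD1(G93A) samples. It rose by 1.72 (SE 0.08, adjusted p by limma 2.3e-07), and OAT, which makes and uses ornithine, was at −0.02. SHMT2, which splits serine for mitochondrial folate metabolism, read 10.13, 10.02, 10.22, 10.18 and 10.13, and then 9.73, 9.54, 9.54, 9.64 and 9.59. It fell by 0.53 (SE 0.06, adjusted p by limma 0.000211), and the next enzyme of that pathway, MTHFD2, was at 0.01.

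Of 10 measured regulators of mitochondrial biogenesis, 3 were called lower and 0 higher, beside 5.57% and 4.03% of named genes. With so few genes, chosen with earlier results known, these counts say little about the regulators as a set. ESRRG, an orphan nuclear receptor active in oxidative tissues, read 8.32, 8.07, 8.18, 8.35 and 7.97 in the wild-type samples and 7.21, 7.28, 7.19, 7.41 and 7.26 in the SOD1(G93A) samples. The groups were far apart, and ESRRG fell by 0.91 (SE 0.08, adjusted p by limma 4.93e-05). PPARD, a nuclear receptor that senses fatty acids, read 7.63, 7.79, 7.69, 7.74 and 7.72, and then 7.41, 7.34, 7.35, 7.23 and 7.36. It fell by 0.37 (SE 0.05, adjusted p by limma 0.00125) with no overlap. MYC, a growth regulator, read 9.23, 9.38, 9.22, 9.23 and 9.30, and then 9.17, 8.88, 8.98, 8.92 and 9.07. It also separated the groups and fell by 0.27 (SE 0.07, adjusted p by limma 0.0332). The MYC call was lost without any 1 of 8 arrays, all but SOD1(G93A) samples 3 and 18 (adjusted p by limma up to 0.0860). NRF1, ESRRA and TFAM, the mitochondrial DNA transcription factor, were at −0.16, −0.08 and −0.03 and were not called. PPARGC1A was at 2.58 and 2.55, under the lower quartile of every array. Between 7 and 10 genes of the 5 lists were called under the alternatives.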

How the data were processed

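RNA levels were measured on Affymetrix exon arrays in 10 SH-SY5Y samples. The authors deposited log2 values, 1 per gene-level probe set and array, made with RMA per the submitters' processing notes; the labels name oneChannelGUI 1.6.5. Genome build and filters count as not given in the sources used here, while the number of arrays limits the precision. Names came from the platform annotation: 14432 probe sets had 1 symbol, 2408 several and 5171 none. Symbols of all 36 members matched RefSeq (GRCh38.p14) by gene identifier.

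Groups were compared with limma 3.58.1 under R 4.3.3 (lmFit and eBayes, 2-sided, no filter) over all 22011 probe sets with Benjamini-Hochberg adjustment, called at 0.05 as the labels state, and checked on simulated data. Intervals are 95% intervals of the moderated fit. Groups came from the sample titles. Members and lists were chosen with earlier results of these data known. Full values are given for called members and called related genes, for members with an absolute log2 fold change of 0.3 or more, for SLC25A4, SLC25A12, SLC25A13, MTCH1 and MTCH2, and, chosen after their values were seen, for SLC25A10, SLC25A17 and SLC25A37 (unadjusted p under 0.05). Uncalled related genes named as partners, and the 7 promoter motifs, were also chosen after values were seen. Alternatives were leaving out arrays, bright probe sets only, trend and robust moderation, median centring, array weights, averaged probe sets and, added later, a block of consecutive sample numbers.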

Additional observations from a re-analysis of the deposited data

Results flagged for a closer look

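Each group of 5 arrays was searched for an array whose gap to its nearest neighbour exceeded 0.71 of the group's range, over the 36 carriers and the 9 called related genes. Of 90 groups 7 had one (7.78%), and chance gives about 5%. In wild-type arrays, SLC25A29 was low in sample 2 (8.47, next 8.68), SLC25A20 low in sample 8 (7.07, next 7.54), MTCH1 high in sample 11 (8.35, next 8.22), and SLC25A42 and SLC25A41 high in sample 17 (6.66, next 6.40, and 4.55, next 4.39). In SOD1(G93A) arrays, SLC25A48 was high in sample 3 (5.0, next 4.69) and SLC25A24 high in sample 18 (7.95, next 7.39). None of these 7 genes was called by limma.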

How the results depend on the processing

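The count of carriers called, 1 as reported, was 2 with array quality weights and 2 among probe sets above the median level, where 25 carriers were tested; SLC25A17 was the addition in both (1 higher in each). Leaving out 1 array gave 0 to 1 called, with 0 to 1 higher and 0 to 1 lower. No alternative run gave more than 2, and 0 passed the 2-fold threshold under any. SLC25A4 (−0.06) ranged from −0.17 to 0.02 when 1 array was left out, turning sign without wild-type sample 17 and reaching 0.00 without wild-type sample 2; the cause was not tested. SLC25A13 (0.13) was at 0.05 without SOD1(G93A) sample 18 and 0.03 without samples 17 and 18, MTCH2 (−0.08) at −0.02 without SOD1(G93A) sample 12 and −0.05 without wild-type sample 17, and SLC25A37 (−0.15) at −0.06 as the mean of its probe sets; none of these genes was called under any alternative run. Over all probe sets 1213 to 1691 were called, against 1643. Leaving out samples 17 and 18 together, added after the data were seen, kept SLC25A11 called (0.0456) and gave UCP2 an adjusted p by limma of 0.171 and MYC 0.0943, and array weights gave UCP2 0.0551. Centring moved fold changes by −0.01. No sample number is shared between the groups, and no label says that consecutive numbers (2 and 3, 8 and 9, and so on) mark a shared day or culture. As a check added after the data were seen, such neighbours were taken as a replicate block: 0 carriers were called (0 higher and 0 lower), SLC25A11 kept its −0.36 with an adjusted p by limma of 0.0553, UCP2 had 0.127 and MYC 0.108, and 1213 probe sets were called. Deviations from the group means correlated at −0.03 to 0.14 within the 5 neighbour pairs, and only wild-type samples 8 and 11 correlated best with their own neighbour. Because the deviations sum to 0 within each group of 5, such correlations do not decide whether neighbours shared a day. No pairing was adopted because no label gives one, and the SLC25A11 call depends on that choice. SLC25A31 lay below the arrays' lower quartiles, where signal over background is least.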

Other observations

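The 5 protein-coding genes on either side of SLC25A11 in the RefSeq order were read as well, and 8 of these 10 had a named probe set. ENO3, a muscle enolase, rose by 0.49 (SE 0.10, adjusted p by limma 0.0144) and PLD2, a phospholipase, by 0.29 (SE 0.05, adjusted p by limma 0.00658), both with no overlap between the groups. The divergent neighbour RNF167 had a fold change of 0.21 (95% interval 0.06 to 0.36, adjusted p by limma 0.101), opposite in sign to SLC25A11. PFN1, an actin-binding protein, MINK1, GP1BA, SPAG7 and CAMTA2 were not called, at 0.08, −0.06, −0.20, 0.02 and 0.00. Of the 8, 2 were called higher and 0 lower, beside 4.03% and 5.57% of named genes. With so few genes, these counts say little about the neighbourhood.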
